A study of Mus musculus with 4 samples.

Results

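Small nucleolar RNAs were read in the hippocampus of mice at postnatal day 30. They were taken as every gene of the expression table whose symbol is Snora or Snord followed by a digit, and a gene with several RefSeq records was represented by the record with the highest mean over the libraries. This gave 105 of the 23466 genes in the table, from 134 of its 31315 records. Of these, 36 carry the name Snora, the H/ACA box class, and 69 the name Snord, the C/D box class. The study compared 2 wild-type samples, 11 and 73, with 2 mutant samples, 38 and 39, all frozen hippocampus on the C57BL/6N background. The mutants are labelled as conditional het with Atp6ap2 and Camk2aCre/0, while their titles read ko, and the field of the controls reads wt, so whether the controls carry a floxed allele or Cre is not given. Camk2a-Cre is active in forebrain excitatory neurons, so the other cells of the dissected tissue are not targeted. In such a bulk sample, fewer cells of a type and less RNA per cell cannot be told apart. The labels do not say whether each sample is a separate animal, so p-values here reflect no more than how these 4 samples vary.

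Small nucleolar RNAs are short nuclear RNAs that guide the chemical modification of ribosomal and other RNAs by base pairing with the target. The H/ACA class folds into hairpins followed by an ACA triplet near the 3′ end and guides pseudouridylation, with dyskerin (Dkc1) as the enzyme. The C/D class holds a C box near the 5′ end and a D box near the 3′ end and guides methylation of the ribose, with fibrillarin (Fbl) as the enzyme. Most mammalian members are cut out of introns of host genes, many of which encode ribosomal or translation proteins, so a small nucleolar RNA and its host messenger RNA come from the same transcript but are processed and degraded separately.

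The sequences of the members that the results turn on are shown 5′ to 3′. They are GENCODE M21 transcripts on the mouse build GRCm38, matched by accession or symbol for all 105 members. The first set holds H/ACA members, with the triplet 3 bases before the 3′ end in capitals. Snora81 is the member with the largest difference relative to its error, Snora70 and Snora68 were lower in both mutants, and Snora35 ranked the 4 libraries in the same order as its host gene.
Snora81: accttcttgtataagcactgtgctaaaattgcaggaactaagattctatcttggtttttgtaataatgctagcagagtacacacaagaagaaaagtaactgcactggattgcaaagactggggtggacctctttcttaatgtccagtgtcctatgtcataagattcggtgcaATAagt
Snora70: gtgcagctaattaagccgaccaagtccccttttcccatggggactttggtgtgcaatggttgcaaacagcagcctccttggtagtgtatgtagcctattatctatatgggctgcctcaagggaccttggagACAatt
Snora68: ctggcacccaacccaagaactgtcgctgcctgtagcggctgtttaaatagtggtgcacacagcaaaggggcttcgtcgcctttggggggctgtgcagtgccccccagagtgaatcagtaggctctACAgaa
Snora35: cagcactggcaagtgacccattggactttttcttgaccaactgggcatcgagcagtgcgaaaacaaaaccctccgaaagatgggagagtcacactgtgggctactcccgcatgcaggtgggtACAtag
The triplet was ACA in 30 of the 36 Snora members and ATA in 2, Snora81 among them. Over all 1507 GENCODE small nucleolar RNA transcripts, 18.3% held ACA at that place and 1.66% held ATA.

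The second set holds C/D members, with the first TGATGA, letters of the C box, and the last CTGA, the D box, in capitals. Snord17, Snord104 and Snord32a were lower in both mutants, and Snord2 shares the host gene of Snora81.
Snord17: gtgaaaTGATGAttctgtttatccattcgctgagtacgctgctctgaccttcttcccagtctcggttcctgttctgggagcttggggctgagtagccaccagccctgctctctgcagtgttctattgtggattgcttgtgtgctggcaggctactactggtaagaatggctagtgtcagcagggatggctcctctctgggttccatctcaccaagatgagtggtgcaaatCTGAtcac
Snord104: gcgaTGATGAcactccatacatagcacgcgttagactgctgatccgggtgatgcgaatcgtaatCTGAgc
Snord32a: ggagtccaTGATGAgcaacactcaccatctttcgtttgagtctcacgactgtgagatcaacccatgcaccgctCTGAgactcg
Snord2: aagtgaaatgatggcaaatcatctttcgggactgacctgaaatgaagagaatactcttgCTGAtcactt
TGATGA was present in 47 of the 69 Snord members (68.1%) and in 0 of the 36 Snora members, against 26.1% of all GENCODE small nucleolar RNA transcripts. Snord2 lacks these exact letters. A CTGA within the last 10 bases was found in 43 of the 69 Snord members, against 26.9% of all these transcripts. Only the strand of the RNA was searched, and a match describes letters, not a working box.

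The H/ACA members were read more deeply than the shorter C/D members. The deposited values were taken to be scaled aligned bases, a unit inferred from the values themselves. They are given here as scaled read equivalents, the value divided by the 42 bases taken as the contribution of 1 read. The RefSeq records of the members are 45 to 221 bases long, with a median of 119.5 for Snora and 68 for Snord. Divided by that length, the median depth was 15.3 aligned bases per base of record for Snora and 1.96 for Snord, so the gap between the classes holds per base as well. Among the low values, between 3.03% and 9.76% of member records held a whole number of reads, against 53.5% to 55.6% of the other records, so most of these low member records counted a read with only some of its bases. The GENCODE transcript was longer than the RefSeq record for 86 of the 105 members, by a median of 11 bases over all 105. The values therefore count bases inside the record and not molecules of the mature RNA, and reads of unspliced host transcripts that cross it can be included.

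All 105 members together took 0.116% of the signal in wild-type 11, 0.110% in wild-type 73, 0.101% in mutant 38 and 0.0985% in mutant 39. Snord17 alone made up 43.5% of the member signal, the 3 most abundant members 65.2% and the top 10 members 86.7%. The summed level was 17699 and 17248 read equivalents in the wild-types and 15597 and 15603 in the mutants, so both mutants lay below both wild-types. Without Snord17 the sums were 9947, 9106, 9295 and 9056 in the order wild-type 11, wild-type 73, mutant 38 and mutant 39, and the groups overlapped. Snord17 thus made up most of the net gap between the sums. Snora81 was higher in both mutants and offset lower levels of other members in these sums. The overlap without Snord17 therefore does not show that the other members were alike between the groups.

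Before scaling, depth over all genes ranged from 10023033 read equivalents in wild-type 73 to 18339838 in wild-type 11, so values of wild-type 73 rest on the fewest reads. Atp6ap2, the targeted gene and an accessory subunit of the vacuolar proton pump, had between 2312 and 2637 read equivalents, and its log2 fold change was 0.04 ± 0.10 (SE), so it does not check the labels. The 6 markers of hippocampal excitatory neurons summed to between 46487 and 54026. Camk2a and Slc17a7 made up most of these sums, so they do not show that every marker was even. Wfs1 had 1631 and 1786 read equivalents in the wild-types, but 1069 in mutant 38 and 2885 in mutant 39. All 12 choroid plexus markers were higher in wild-type 11 and mutant 38 than in the other 2 libraries, with sums of 48517 and 81229 against 3649 and 2797, so each group holds a library with high and one with low choroid plexus RNA. All 5 oligodendrocyte markers were higher in both mutants, with sums of 72576 and 51536 in the wild-types and 89572 and 78754 in the mutants. The 4 thalamus markers summed to 1186 and 1098 in the wild-types and 3443 and 1605 in the mutants, and 2 of them were higher in both mutants. The part of these tissues in the results for small nucleolar RNAs was not tested, apart from the values within the choroid plexus pairs given beside Snora81 and the median.

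Snora81, an H/ACA RNA encoded within Eif4a2 on chromosome 16, had the largest difference among the abundant members. It had 818 read equivalents in wild-type 11 and 680 in wild-type 73, against 1691 in mutant 38 and 1641 in mutant 39. Both mutants were far above both wild-types, and within each group the libraries were close, at 749 ± 97.8 for the wild-types and 1666 ± 35.1 for the mutants (SD, n = 2 per group). The ratio of the means was 2.23, and the log2 fold change was 1.16 ± 0.12 (SE), with a 95% interval from 0.87 to 1.45. The difference did not pass in limma, with an adjusted p of 0.123 over the 18127 genes tested. The authors' deposited table gives p = 1.24e-13 for this record, which stays at 9.69e-10 after a Benjamini-Hochberg adjustment made here over its records. The call turned on how the spread was modelled. The limma adjusted p was 0.0445 with a robust variance prior. With the high and low choroid plexus pairs as a block it was 7.94e-04. That fit was chosen after the data were seen and leaves 1 residual degree of freedom per gene. In the other alternatives that keep all 4 libraries, Snora81 did not pass. Fits without a library leave a lone sample in its group, assumed to vary like the other group, so no call is read from them. The log2 difference was 1.05 within the pair of libraries high in choroid plexus markers and 1.27 within the low pair.

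The host of Snora81 showed no difference beyond the spread between its libraries. Eif4a2, which encodes an RNA helicase of translation initiation, had 6236 and 4899 read equivalents in the wild-types and 5850 and 6484 in the mutants. Its groups overlapped, and its log2 fold change was 0.16 ± 0.14 (SE), which became -0.02 without wild-type 73. Its 3 RefSeq records gave log2 ratios of the group means between 0.14 and 0.22. Per base of record, Snora81 was read 2.17 and 2.29 times as deeply as Eif4a2 in the wild-types and 4.77 and 4.18 times in the mutants. In GENCODE, 14 Eif4a2 transcripts span Snora81 and 2 have an exon that overlaps it, while the Eif4a2 record used here has none. Reads of such host transcripts can be included in the level of Snora81, and their share was not tested. On the log2 scale the difference between Snora81 and Eif4a2 was 1.00 larger in the mutants, and the 2-sided exact permutation test gave p = 0.3333, the smallest that 2 against 2 libraries can give.

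**Figure D1:**
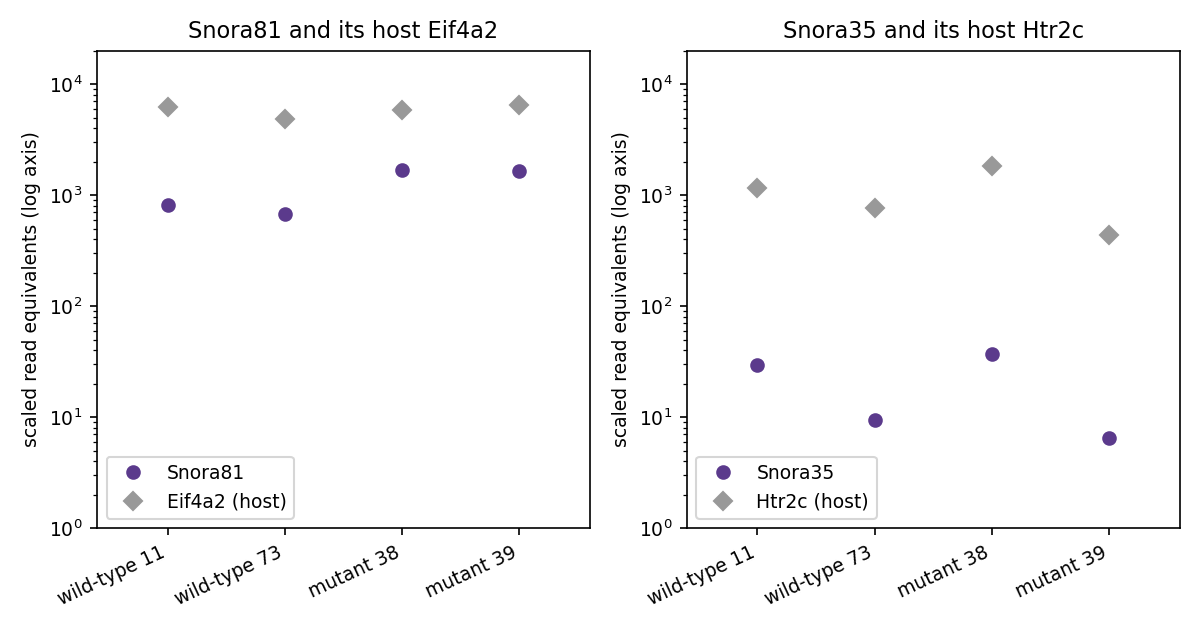
Scaled read equivalents (log axis) of Snora81 with its host Eif4a2 and of Snora35 with its host Htr2c in each of the 4 libraries, 1 point per library. Snora81 stands at 1691 and 1641 in the mutants against 818 and 680 in the wild-types while Eif4a2 overlaps between groups, and Snora35 and Htr2c are both highest in mutant 38 and wild-type 11.

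Snord2, a C/D RNA of the same host, was read at a far lower level than Snora81. It had 11.9 and 6.47 read equivalents in the wild-types and 20.4 and 9.80 in the mutants. The mutant values were spread wider than the difference, the groups overlapped, and the log2 fold change was 0.63 ± 0.53 (SE), with a 95% interval from -0.63 to 1.89. This interval holds both 0 and the value of Snora81. Other small nucleolar RNAs of Eif4a2 were not analysed here.

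Over all members, 0 of the 89 tested passed an adjusted p of 0.05 in limma, against 0.00552% of all genes tested. At an unadjusted p under 0.05, 2 members were higher in the mutants, Snora81 and Snord16a, which is 2.25% of the members tested against 2.18% of all genes. Another 6 were lower, Snora70, Snord104, Snord17, Snord32a, Snora47 and Snora68, which is 6.74% against 1.75%. In the authors' deposited table, with its p taken at 0.05, Snora81 was higher, and Snord17, Snora70 and Snord104 were lower, against 0.929% of all genes higher and 0.729% lower. After a Benjamini-Hochberg adjustment of those p-values made here, Snora81 alone of the members stayed under 0.05, against 0.192% of all genes. The numbers in limma depended on single libraries. Fits without a library leave a lone sample in its group, so their counts of members are not given. With the choroid plexus pairs as a block, 2 members were higher and 10 lower at an unadjusted p under 0.05. That block also raised the calls over all genes, to 69 instead of 1 at an adjusted p under 0.05. The share of all genes at its unadjusted p is not given here, so these counts are not read as particular to the members.

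**Figure D2:**
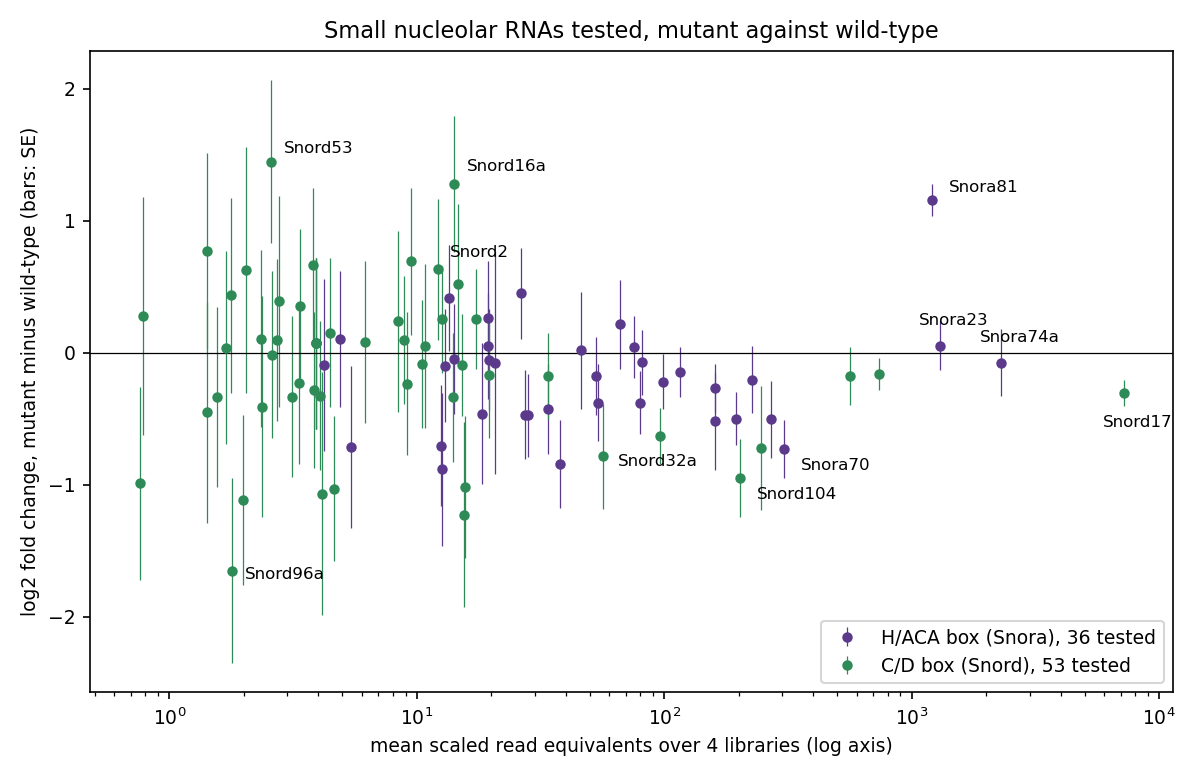
Log2 fold change of mutant minus wild-type (points, with bars of 1 SE) against the mean scaled read equivalents over 4 libraries (log axis) for the 36 Snora and 53 Snord members tested. Snora81 stands at 1.16 among abundant members that mostly lie at or below 0, and the bars widen towards members with few reads.

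Of the lower members, Snord17 was the most abundant and the most precisely measured. This C/D RNA, from an intron of the sorting nexin gene Snx5 on chromosome 2, had 7753 and 8142 read equivalents in the wild-types and 6302 and 6547 in the mutants. Both mutants were below both wild-types, by 19.2% of the wild-type mean. The log2 fold change was -0.31 ± 0.10 (SE, limma adjusted p = 0.989), and it was -0.30 in the high and -0.31 in the low choroid plexus pair. The host Snx5 had 1122 and 933 read equivalents in the wild-types and 1138 and 1175 in the mutants. Its log2 fold change was 0.18 ± 0.12 (SE), and 0.04 without wild-type 73.

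Snora70, an H/ACA RNA within the ribosomal protein gene Rpl10 on the X chromosome, had 303 and 467 read equivalents in the wild-types and 212 and 241 in the mutants. The groups did not overlap, and wild-type 73 was the highest library. The log2 fold change was -0.73 ± 0.22 (SE), and it was -0.42 without wild-type 73. Its host Rpl10 was read at only 15.4, 21.5, 11.3 and 10.9 read equivalents in wild-type 11, wild-type 73, mutant 38 and mutant 39. This is the same order of groups, with a log2 fold change of -0.67 ± 0.40 (SE). Per base of record, Snora70 was read at a mean depth of 99.6 and Rpl10 at 0.78. Rpl10 is a gene with many processed copies, so its reads may be split between near-identical sequences and its level is uncertain.

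Snord104, a C/D RNA on chromosome 11 for which no host was found on its strand, had 189 and 352 read equivalents in the wild-types and 147 and 120 in the mutants. Wild-type 73 again stood above the rest. The log2 fold change was -0.95 ± 0.30 (SE) over the 4 libraries and -0.50 without wild-type 73, and it was -0.36 in the high and -1.54 in the low choroid plexus pair. All 4 settings that leave out a library kept it below 0.

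Snord32a, a C/D RNA within the ribosomal protein gene Rpl13a, had 109 and 126 read equivalents in the wild-types and 76.5 and 73.5 in the mutants. The groups were well apart, with a log2 fold change of -0.63 ± 0.21 (SE). Rpl13a itself had 3143, 2978, 2864 and 3104 read equivalents, and its groups overlapped. The other 3 members of the same host had values nearer 0 with wide errors. Snord33 had log2 fold change 0.26 ± 0.38 (SE), Snord34 -0.23 ± 0.54 and Snord35a -0.08 ± 0.48, each with a mean below 20 read equivalents.

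Snora68, an H/ACA RNA, had 216 and 240 read equivalents in the wild-types and 187 and 138 in the mutants. Its log2 fold change was -0.50 ± 0.20 (SE), with both mutants below both wild-types, and it was -0.28 without mutant 39. Snora47, an H/ACA RNA within Zbed3, had 40.7 and 57.5 read equivalents in the wild-types and 30.4 and 23.0 in the mutants, a log2 fold change of -0.84 ± 0.33 (SE). Zbed3 was higher in both mutants, at 83.1 and 80.6 against 68.7 and 61.7, with a log2 fold change of 0.32 ± 0.23. Snora47 and its host thus lay on opposite sides of 0.

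**Figure D3:**
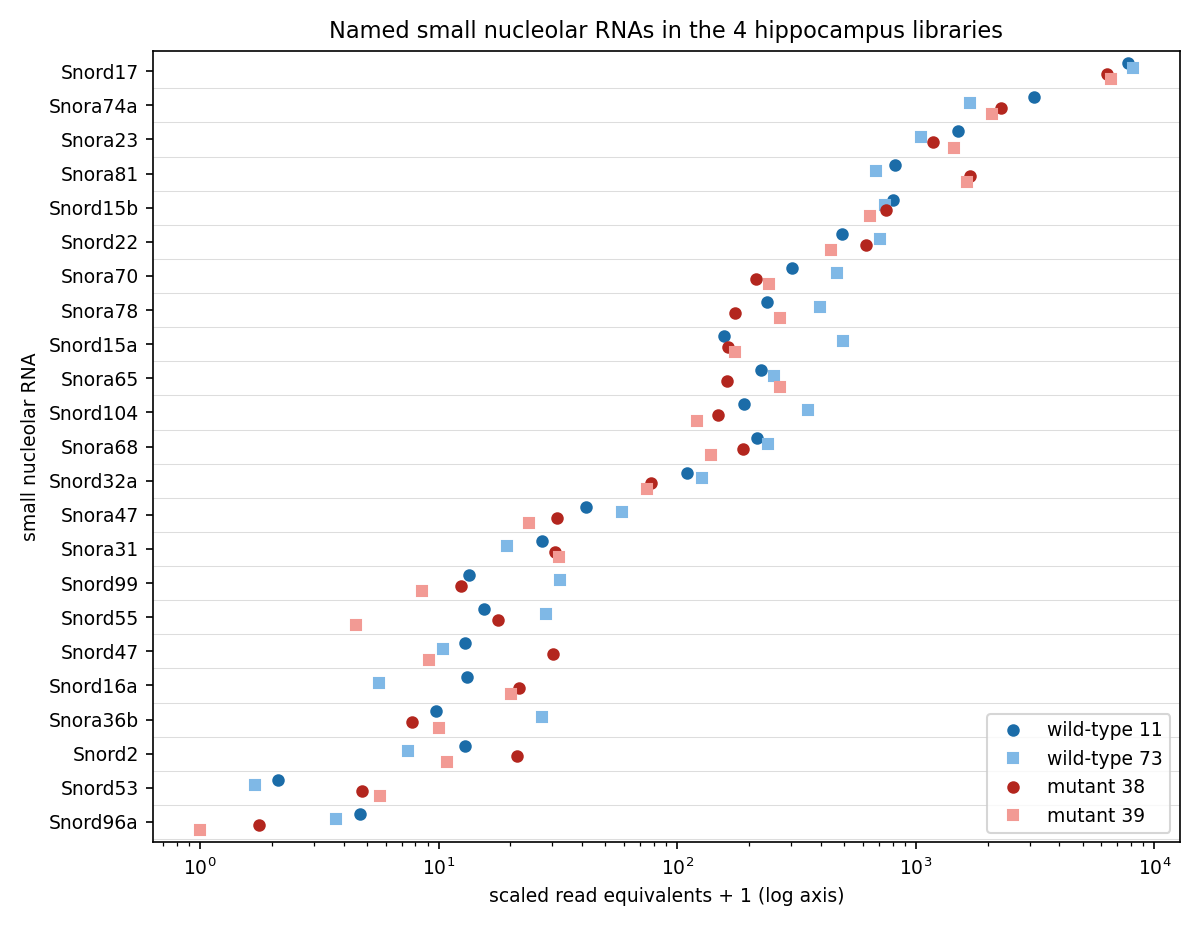
Scaled read equivalents + 1 (log axis) of the 23 named small nucleolar RNAs, 1 point per library, sorted by mean level. Blue points are the wild-types and red points the mutants, with circles for the libraries high in choroid plexus markers (wild-type 11 and mutant 38) and squares for the low ones. Snora81 is the abundant RNA with both mutants above both wild-types, and Snord15a shows wild-type 73 apart from the other libraries.

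The other abundant members showed no difference beyond the spread between libraries. Snora74a, an H/ACA RNA and second in level, had 3127 and 1690 read equivalents in the wild-types and 2281 and 2092 in the mutants, so the wild-types enclosed the mutants. Snora23, an H/ACA RNA of the nuclear import gene Ipo7, had 1501, 1054, 1175 and 1451 in wild-type 11, wild-type 73, mutant 38 and mutant 39, and its groups overlapped. Snord15b, a C/D RNA of the ribosomal protein gene Rps3, had 805 and 742 against 746 and 642. Its log2 fold change of -0.16 ± 0.12 (SE) leaves an interval from -0.45 to 0.13.

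Snord15a, the second C/D RNA of Rps3, depended on a single library. It had 493 read equivalents in wild-type 73 but 156 in wild-type 11, 163 in mutant 38 and 174 in mutant 39. The log2 fold change was -0.72 ± 0.47 (SE) over all libraries, 0.11 without wild-type 73 and -1.55 without wild-type 11. Rps3 had a log2 fold change of 0.15 ± 0.12. Snord22, a C/D RNA of the non-coding host Snhg1, had 489 and 709 read equivalents in the wild-types and 616 and 441 in the mutants, so its groups overlapped. Snora78, an H/ACA RNA of Snhg9, had 238 and 396 against 174 and 269, and Snora65, an H/ACA RNA of Rpl12, had 223 and 255 against 160 and 268. Both pairs of groups overlapped as well.

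Among members of middle and low level, the largest differences rested on few reads. Snord16a, a C/D RNA of Rpl4, had 12.2 and 4.65 read equivalents in the wild-types and 20.7 and 19.2 in the mutants, a log2 fold change of 1.28 ± 0.52 (SE), which was 0.67 without wild-type 73. Snora31, of Tpt1, had 26.3 and 18.3 against 29.9 and 30.9, and Snord47, of the growth arrest transcript Gas5, had 11.9 and 9.41 against 29.1 and 8.13. Snora31 was therefore higher in both mutants, while Snord47 was high only in mutant 38 and its log2 fold change of 0.52 ± 0.61 (SE) became -0.34 without it. Snord53, of Wdr43, had 1.13 and 0.71 against 3.76 and 4.71, all near a handful of reads.

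In the lower direction, Snord55, a C/D RNA, had 14.5 and 27.3 read equivalents in the wild-types and 16.7 and 3.50 in the mutants, with overlapping groups. Snord99, of Snhg12, had 12.4 and 31.4 against 11.5 and 7.50, and Snora36b, of Rab3gap2, had 8.75 and 26.1 against 6.75 and 9.03. Wild-type 73 was the highest library for each of these RNAs. Snord96a, of the ribosome-bound scaffold gene Gnb2l1, had 3.68 and 2.71 against 0.76 and 0 in mutants 38 and 39. It had the lowest log2 fold change of all members, -1.65 ± 0.70 (SE), from at most 4 read equivalents in a library.

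The remaining 65 members tested, 25 Snora and 40 Snord, had log2 fold changes between -1.12 (Snord87) and 0.77 (Snord45c), with unadjusted p from 0.0903 upwards. Among them was the imprinted Snord116 cluster of the Snurf-Snrpn locus, whose loss is linked to Prader-Willi syndrome. Its 3 entries, Snord116, Snord116l1 and Snord116l2, held identical values of 2.45 and 5.02 read equivalents in the wild-types and 5.85 and 2.34 in the mutants, so they are 1 measurement of repeated sequence and not 3. The 16 members not tested were all Snord, with means of at most 0.98 read equivalents. Snord52 and Snord93 were at 0 in all 4 libraries, and 88 of the 105 members had signal in every library.

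Counted without a test, both mutants lay below both wild-types for 22 of the 105 members (21.0%) and above them for 13 (12.4%). Among all genes in the table, the shares were 13.1% below and 14.2% above. By class, 13 of 36 Snora were lower and 3 higher, and 9 of 69 Snord were lower and 10 higher, but the Snord count includes 16 members too low to test, and the classes were not tested against each other. The median log2 fold change of the 89 members tested was -0.10, with quartiles at -0.45 and 0.11, beside 0.01 for all genes tested. It was -0.16 for Snora and -0.08 for Snord. With a mean of at least 10 read equivalents the classes were alike in these values, with 24 of 33 Snora below 0 and a median of -0.18, and 14 of 20 Snord below 0 and a median of -0.17. Of the members tested, 54 (60.7%) had a value below 0, against 48.7% of all genes. Among the 15 members with a mean of at least 100 read equivalents, 13 were below 0 and the median was -0.27, while all genes at that level had a median of 0.01. The median ranged from -0.27 without mutant 38 to -0.06, and it was -0.07 within the pair of libraries high in choroid plexus markers and -0.22 within the low pair.

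Most host genes lay nearer 0 than the small nucleolar RNAs they hold, and they were also measured more precisely. In the GENCODE annotation 102 of the 105 members lie inside a gene on the same strand, and for 96 of them that gene is in the table, as 70 distinct hosts. Of these, 22 encode ribosomal proteins and hold 31 members. In limma 0 of the 70 hosts had an unadjusted p under 0.05, against 2.18% of all genes higher and 1.75% lower, and their median log2 fold change was -0.04. Among the 81 pairs in which both were tested, 45 had the same sign. In the 47 pairs with both means of at least 10 read equivalents, 29 had the same sign, and the log2 fold changes had Pearson r = 0.13 and Spearman rho = 0.07 across pairs. The member was further from 0 than its host in 40 of them and the host in 7, while the median SE was 0.37 for members and 0.15 for hosts. These pairs share 38 hosts and the same 4 libraries, so they are not independent.

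The ratio of member to host was higher in both mutants in 9 of the 81 pairs (11.1%), among them Snora81, Snora31, Snord16a and Snord53. It was lower in both mutants in 17 (21.0%), among them Snord17, Snora47, Snord32a, Snord15b and Snora78. The ratio of Snora78 is uncertain, since its host Snhg9 had a mean of only 2.60 read equivalents and a log2 fold change of 0.66 ± 0.64 (SE). Among the levels of all genes tested, both mutants were higher in 16.8% and lower in 16.5%. These are shares of single levels and not of ratios, so they are only a rough guide to the pairs. The 4 members of Snhg12, a non-coding host, all had values below 0. Their log2 fold changes were -0.22 ± 0.21 for Snora16a, -0.43 ± 0.34 for Snora44, -0.05 ± 0.38 for Snora61 and -1.02 ± 0.54 for Snord99 (SE), which overlap within their errors, beside -0.06 ± 0.18 for Snhg12 itself.

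**Figure D4:**
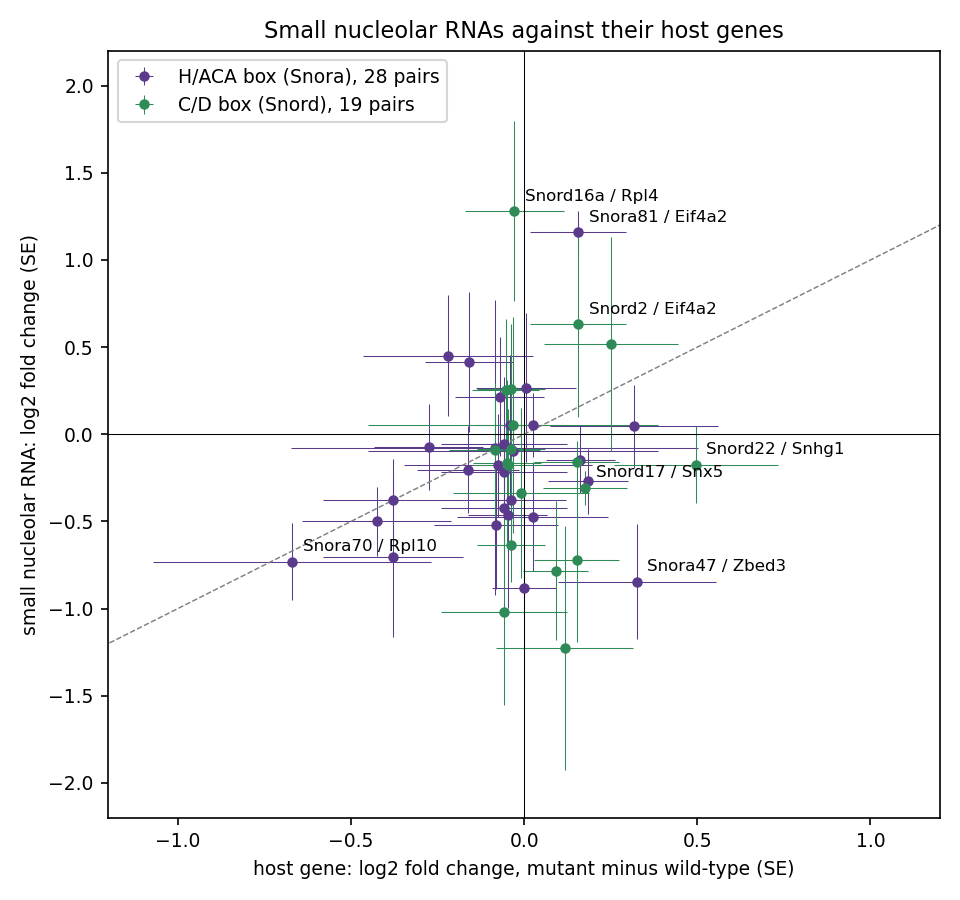
Log2 fold change of each small nucleolar RNA (vertical axis) against that of its host gene (horizontal axis) for the 47 pairs with means of at least 10 read equivalents, with bars of 1 SE and a dashed line of equality. Hosts lie close to 0 while the small nucleolar RNAs spread from below -1 to above 1, and Snora81 lies at 1.16 with Eif4a2 at 0.16.

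Snora35 ranked the libraries as its host did, and not by genotype. This H/ACA RNA lies in an intron of Htr2c, the serotonin receptor gene that is strongly expressed in choroid plexus, and it was chosen for description after its values were seen. Mutant 38 had 37.4 read equivalents of it and wild-type 11 had 29.8, against 9.37 in wild-type 73 and 6.47 in mutant 39. Htr2c had 1828 and 1168 in the first pair and 764 and 434 in the second. Both thus ranked the libraries in the same order and were highest in the libraries with high choroid plexus markers, and both log2 fold changes between genotypes, -0.08 ± 0.84 for Snora35 and -0.08 ± 0.59 for Htr2c (SE), changed sign when single libraries were left out.

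The genes for proteins that form and assemble the small nucleolar ribonucleoproteins were read as messenger RNA, and protein was not measured. All 21 listed genes were tested in limma, 0 had an unadjusted p under 0.05, and the median log2 fold change was -0.04, with a range from -0.54 to 0.21. Both mutants were below both wild-types for 8 of the 21 genes and above for 1, beside 16.5% and 16.8% of all genes tested. The share below was thus larger than among all genes, and this was not tested. Gar1, a core protein of the H/ACA particle, had the lowest value, with 73.4 and 72.8 read equivalents in the wild-types and 54.0 and 46.2 in the mutants, a log2 fold change of -0.54 ± 0.25 (SE). The other H/ACA core genes stood nearer 0, with Dkc1 at 0.06 ± 0.16, Nhp2 at 0.12 ± 0.15 and Nop10 at -0.04 ± 0.15. Of the C/D core genes, Fbl had 263 and 200 read equivalents against 196 and 194, Nop58 had 535 and 578 against 490 and 483, and Nop56 had 1115 and 1167 against 1102 and 1102. For Fbl and Nop56 the gap between the groups was smaller than the gap between their wild-types.

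Related RNAs were set beside the members. Small Cajal body RNAs guide the modification of spliceosomal RNAs, and the median log2 fold change of the 9 tested was -0.04. Both mutants were lower for 4 of them and higher for 0, beside 16.5% and 16.8% of all genes tested. Scarna8 (0.70 ± 0.47), Scarna3a (0.31 ± 0.36) and Scarna3b (0.23 ± 0.36, SE) had values above 0, with overlapping groups. Scarna6 and Scarna2 were lower at an unadjusted p under 0.05 in limma, against 1.75% of all genes. Scarna6 had 643 and 791 read equivalents in the wild-types and 520 and 498 in the mutants, and Scarna2 had 560 and 411 against 355 and 369. Their log2 fold changes were -0.49 ± 0.14 and -0.40 ± 0.17 (SE, both with limma adjusted p = 0.989), and that of Scarna2 was -0.18 without wild-type 11. Rmrp, the RNA of a ribonuclease that processes ribosomal RNA, had 84630 and 108575 against 72996 and 73529, and was lower in both mutants. Rpph1, the RNA of the related ribonuclease P, had 115614 and 95859 against 99938 and 108561, with overlapping groups. The spliced host transcripts named Snhg, with Gas5, had a median log2 fold change of 0.25, with 7 of 12 higher in both mutants and 0 lower, beside 16.8% and 16.5% of all genes tested. Snhg3 (-0.15 ± 0.32) and Snhg12 (-0.06 ± 0.18) had values below 0, and 0 of the 12 had an unadjusted p under 0.05 in limma. The 6 long nuclear RNAs, among them Malat1 and Meg3, had a median of 0.04. Their values ran from -0.19 ± 0.10 for Miat to 0.92 ± 0.48 for Neat1 (SE). Miat was lower in both mutants, while the groups of Neat1 overlapped.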

How the data were processed

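Per the labels' protocols, total RNA of frozen hippocampus was depleted of ribosomal RNA, fragmented, randomly primed, made strand-specific with dUTP and sequenced from a single end, 4 libraries to a lane. Per the submitters' processing notes, GSNAP, DESeq2 and the mouse build mm9 were used. How reads were counted, with which strand setting and annotation version, is not given in the sources used here. The authors deposited signal values per RefSeq record and p-values. That the values are aligned bases divided by a scaling factor for each library was inferred here from the values themselves. Each library has its own smallest step. All deposited values (100%) lay within 0.05 steps of a whole multiple of it, and low ones gathered at multiples of 42, taken here as 42 bases per read.

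Values were divided by 42. The 18127 genes that reached 1 read equivalent in 2 libraries were fitted with limma 3.58.1 in R 4.3.3 on log2(read equivalents + 1), with a variance trend, group as the only term, 2-sided tests and Benjamini-Hochberg adjustment at 0.05. Fold changes on that scale understate those of low genes. The script was first tested on simulated data. Hosts, chromosomes and sequences come from GENCODE M21, and lengths from the RefSeq table of GRCm38.p6. Builds differ, so no coordinates are printed. Plots used Python 3.11.15 and matplotlib 3.10.9.

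The members and lists were chosen with earlier results of these data known. The named genes are Snora81, members hosted by Eif4a2, the 10 smallest p, the 10 highest means, the 5 highest and 5 lowest log2 fold changes among means of at least 10 read equivalents, their hosts, and the ribonucleoprotein list. Some hosts are not reported here. Snord33, Snord34, Snord35a, Snord87, Snord45c, Snora16a, Snora44, Snora61, the Snord116 entries, Snord52 and Snord93 were named after their values were seen. Alternatives were other pseudocounts, filters, scalings, units, record choices and variance priors, leaving out each library, and pairs of libraries matched for choroid plexus RNA, taken alone or as a block.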

Additional observations from a re-analysis of the deposited data

How the results depend on the processing

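The replicate numbers of the 2 groups are not shared, so they give no pairing of the samples. Over the pseudocounts, filters, scalings, units, record choices and variance settings tried, the number of members that passed in limma was 0 with 1 exception. With a robust variance prior 1 member passed, Snora81, at a log2 fold change of 1.16, while 12 of all genes passed instead of 1. The same 1 member, at 1.16, passed with the choroid plexus pairs as a block, a setting chosen after seeing the data, under which 69 of all genes passed instead of 1. Leaving out a library leaves a lone sample in its group, assumed to vary like the other group. Members that passed in those fits are therefore not counted. Under the same settings the log2 fold change of Snora81 lay between 1.03 and 1.29, and the median of the members between -0.272 and -0.0612, with -0.25 without wild-type 11. The median was -0.0743 in the pair of libraries high in choroid plexus markers and -0.22 in the low pair. The difference between Snora81 and Eif4a2 was 1.14 in the high pair and 0.87 in the low pair. The cause was not tested.

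Some single genes changed sign when 1 library was left out, with log2 fold changes from -0.52 to 0.37 for Snora74a, -1.26 to 1.11 for Snora35, -1.12 to 0.95 for Htr2c, -0.0561 to 0.13 for Atp6ap2, -0.20 to 0.31 for Snora23, -0.44 to 0.0921 for Snord22, -1.55 to 0.11 for Snord15a, -0.0179 to 0.33 for Eif4a2, -0.57 to 0.17 for Snora65 and -0.34 to 1.38 for Snord47. Wild-type 73, the shallowest library, limits members with few reads most, and with 2 libraries per group only differences well above the gap between replicates can pass.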
